A study of Mus musculus with 5 samples.

Results

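Mirtrons are short introns that fold into miRNA hairpins once the spliceosome has cut them out and the lariat has been opened. Most miRNAs are instead cut from a long primary transcript in the nucleus by Drosha, an RNase III enzyme that works with its partner Dgcr8. Both kinds of hairpin are then exported and cut by Dicer, so a mirtron enters the pathway without the Drosha step. The mirtrons described here are all listed arms of the mouse hairpins mir-877, mir-1981, mir-3102, mir-702 and mir-1224, taken by name from the deposited small RNA table. These were 6 mature arms of 5 hairpins, out of 1105 mature miRNAs from 1058 precursors. Of the 6 arms, 5 had reads, and 3 (miR-877-5p, miR-1981-5p and miR-3102-5p.2-5p) passed the filter of a mean of 5 TPM over the 5 libraries. TPM are reads divided by the length of the mature miRNA and scaled to the same sum in every library. All 6 are 5p arms, and the opposite strands of the hairpins were not analysed here.

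The libraries came from OP9, a mouse stromal line labelled as mesenchymal stem cells, which can form adipocytes. The group labelled Drosha KO had 2 libraries, and the group labelled Empty vector, with genotype WT, had 3. Both groups were differentiated toward adipocytes for 10 days in medium with rosiglitazone at 1 µM, a drug that activates PPARγ, so no undifferentiated state is included. How the knockout was made, and whether each library is a separate clone or culture, is not given by the labels. P-values therefore cover only the spread among these libraries, and that spread may be technical. Those from the limma fit rest mainly on spread pooled over all tested miRNAs, not on that of a single arm. The Drosha transcript was not analysed here, so the knockout labels could not be checked on it.

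The 5p sequences, from RefSeq on build GRCm38.p6, are shown because they place the miRNAs relative to the splice sites. They are written 5′ to 3′ with the seed (bases 2 to 8, which pair with targets) in capitals.
miR-877-5p: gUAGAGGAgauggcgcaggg
miR-1981-5p: gUAAAGGCugggcuuagacguggc
miR-3102-5p: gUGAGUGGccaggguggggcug
miR-3102-5p.2-5p: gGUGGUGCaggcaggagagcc
miR-702-5p: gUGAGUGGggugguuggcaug
miR-1224-5p: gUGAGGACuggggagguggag
miR-3102-5p and miR-702-5p share the seed UGAGUGG, which no other listed miRNA with a RefSeq sequence carried. The other 4 arms each had a seed found in no other such miRNA. GU, the first bases of a spliced intron, opened 5 of the 6 arms. The exception was miR-3102-5p.2-5p, which starts with GG. Among the 932 other listed mature miRNAs with a RefSeq sequence, 40 started with GU (4.29%).

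The hairpins of miR-877 and miR-1981 are shown whole because they make up complete introns, with the listed 5p arm in capitals.
Mir877: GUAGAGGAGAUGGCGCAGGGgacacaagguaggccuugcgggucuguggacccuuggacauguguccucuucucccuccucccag
Mir1981: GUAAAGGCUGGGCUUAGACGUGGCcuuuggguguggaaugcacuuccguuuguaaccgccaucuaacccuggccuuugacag
Both begin with gu and end with ag, the usual ends of an intron. Against GENCODE M21 on the same build, 4 of the 5 hairpins matched an annotated intron of their host gene on the same strand to the base at both ends. Mir877 (chr17:35960730-35960814, minus strand, 85 bases) is an intron of Abcf1, which encodes an ABC-family protein that acts in translation initiation. Mir1981 (chr1:184822407-184822488, minus strand, 82 bases) is an intron of Marc2, which encodes a mitochondrial amidoxime-reducing enzyme. Mir3102 (chr7:100882306-100882409, minus strand, 104 bases) is an intron of Arhgef17. Mir1224 (chr16:20604452-20604536, plus strand, 85 bases) is an intron of Vwa5b2.

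The exception was Mir702 (chr5:136991433-136991541, plus strand, 109 bases), in Plod3, a collagen lysyl hydroxylase gene. Its annotated hairpin begins 9 bases before an intron of 102 bases and ends 2 bases before the intron's end. Its 5p arm nevertheless starts at base 1 of that intron, as do the 5p arms of the other 4 hairpins. The intron was annotated in 1 of 8 Abcf1 transcripts, 6 of 10 Marc2 transcripts, 2 of 4 Arhgef17 transcripts, 5 of 6 Plod3 transcripts and 4 of 13 Vwa5b2 transcripts. Mir3102 carries nested arms: miR-3102-5p covers intron bases 1 to 22 and miR-3102-5p.2-5p covers bases 23 to 43. The inner arm therefore does not start at the splice site.

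**Figure D1:**
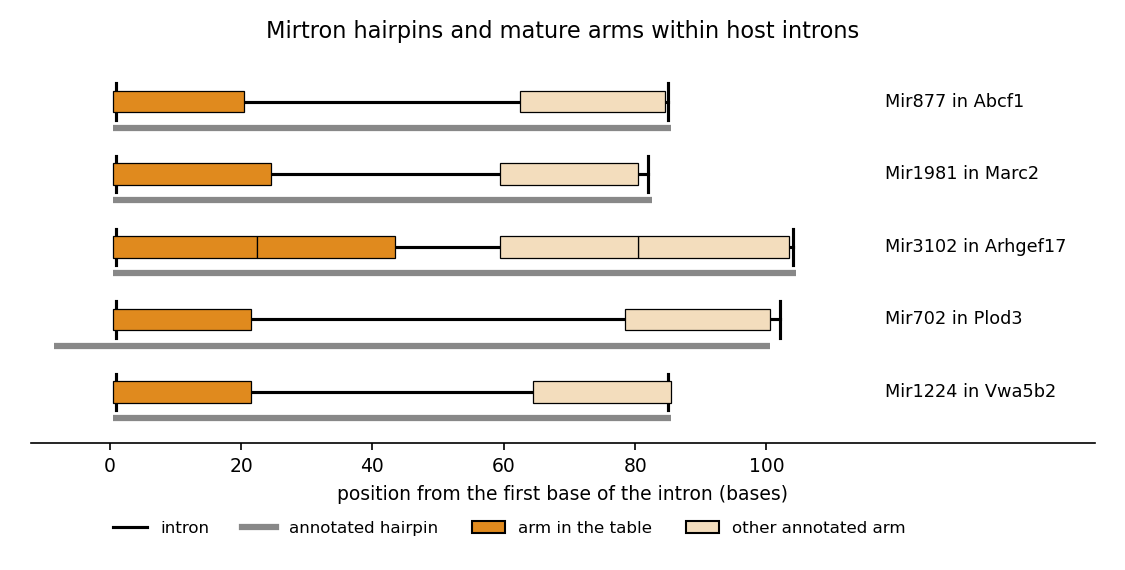
Position of annotated hairpins (grey) and mature arms (orange where listed in the table, pale where not) within the host introns (black lines), in bases from the intron's first base. The 5p arms of all 5 hairpins start at base 1, and the inner miR-3102-5p.2-5p starts at base 23.

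The 3 tested mirtron arms rose in the Drosha knockout, and both knockout libraries stood above every empty-vector library for each. miR-877-5p was 22.3-fold higher, miR-3102-5p.2-5p 10.0-fold and miR-1981-5p 8.76-fold, as ratios of mean TPM. Over all tested miRNAs, 57 were called higher (27.8%) and 56 lower (27.3%) in limma at a Benjamini-Hochberg adjusted p of 0.05. Both knockout libraries stood above every empty-vector library for 73 tested miRNAs (35.6%). All 3 arms exceeded the filter of 5 TPM in each group's mean, so none was tested through the knockout alone. TPM are shares of the listed miRNA reads, so each rise is one of relative abundance. In bulk RNA of this kind, a change in the number of cells making a miRNA and a change per cell cannot be told apart.

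miR-1981-5p was the most abundant mirtron arm in every library. mmu-miR-1981-5p stood at 4479 and 5882 TPM in knockout libraries 1 and 2, against 623, 596 and 556 TPM in empty-vector libraries 1, 2 and 3. The lowest knockout value was 7.19 times the highest empty-vector value, and the empty-vector libraries differed among themselves by 1.12-fold. The means were 5181 ± 992 TPM (SD, n = 2) in Drosha KO, against 591 ± 33.9 TPM (SD, n = 3) with the empty vector. The change of log2(TPM + 1) was 3.12 (SE 0.24, 95% interval 2.62 to 3.61, limma adjusted p = 4.81e-11). The counts were deep, with 1473 and 1750 reads in Drosha KO libraries, against 1517, 1302 and 1149 with the empty vector. Exact Poisson 95% intervals ran from 4253 to 4714 TPM in knockout library 1 and 5610 to 6164 TPM in knockout library 2, so these libraries differed beyond counting error. These intervals and all read limits cover counting error only.

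miR-877-5p had the largest fitted rise of all tested miRNAs on the log2(TPM + 1) scale with all libraries. With 0.1 TPM added in place of 1, its rise of 4.59 was exceeded by those of the sparse miR-7091-5p (6.67) and miR-7013-5p (5.69). Without Drosha KO library 1, its rise of 4.30 was exceeded by that of miR-7091-5p (5.03). mmu-miR-877-5p stood at 445 and 334.78 TPM in Drosha KO libraries, against 8.38, 20.9 and 23.2 TPM with the empty vector. The groups were far apart, the lowest knockout value being 14.4 times the highest empty-vector value. Among the empty-vector libraries, library 1 was low, and the highest library was 2.77 times the lowest. The means were 390 ± 78.1 TPM (SD, n = 2) in Drosha KO, against 17.5 ± 7.97 TPM (SD, n = 3) with the empty vector. The change of log2(TPM + 1) was 4.50 (SE 0.43, 95% interval 3.63 to 5.38, limma adjusted p = 1.82e-09). Behind these values were at least 83 reads in each Drosha KO library, against 17, 38 and 40 reads with the empty vector.

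Of the listed arms of the mir-3102 hairpin, both 5p, the inner one held almost all reads. mmu-miR-3102-5p.2-5p stood at 313 and 192 TPM in Drosha KO libraries, against 23.5, 17.3 and 34.8 TPM with the empty vector. The groups did not overlap, and the lowest knockout value was 5.52 times the highest empty-vector value. The means were 252 ± 85.3 TPM (SD, n = 2) in Drosha KO, against 25.2 ± 8.90 TPM (SD, n = 3) with the empty vector. The change of log2(TPM + 1) was 3.29 (SE 0.41, 95% interval 2.46 to 4.12, limma adjusted p = 3.48e-07). Knockout library 1 was 1.63 times knockout library 2, with 90 against 50 reads.

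The outer arm, miR-3102-5p, begins at the splice site but was near the limit of detection. It had 1 and 2 reads in Drosha KO libraries (3.32 and 7.33 TPM) and 0, 0 and 5 reads with the empty vector (0, 0 and 2.64 TPM). Its mean of 2.66 TPM was under the filter, so it was not tested. Of the reads of both 5p arms, the inner one took 98.9% and 96.2% in Drosha KO libraries, against 100%, 100% and 92.6% with the empty vector. The exact binomial 95% intervals of these shares spanned 86.8% to 100.0% in Drosha KO and 83.7% to 100% with the empty vector, so no difference in arm use was detectable at this depth.

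The remaining hairpins gave next to no reads. A single library, Drosha KO 1, held mmu-miR-702-5p, with 1 read (3.48 TPM), and the other 4 had 0. miR-1224-5p had 0 reads in all 5 libraries. At its length of 21 bases, the limit of 3 reads set here for 0 reads is 10.4 and 11.5 TPM in Drosha KO libraries. With the empty vector it is 1.41, 1.57 and 1.66 TPM. The upper ends of exact two-sided Poisson 95% intervals are higher, at 12.8 and 14.2 TPM in Drosha KO libraries, against 1.73, 1.93 and 2.04 TPM.

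**Figure D2:**
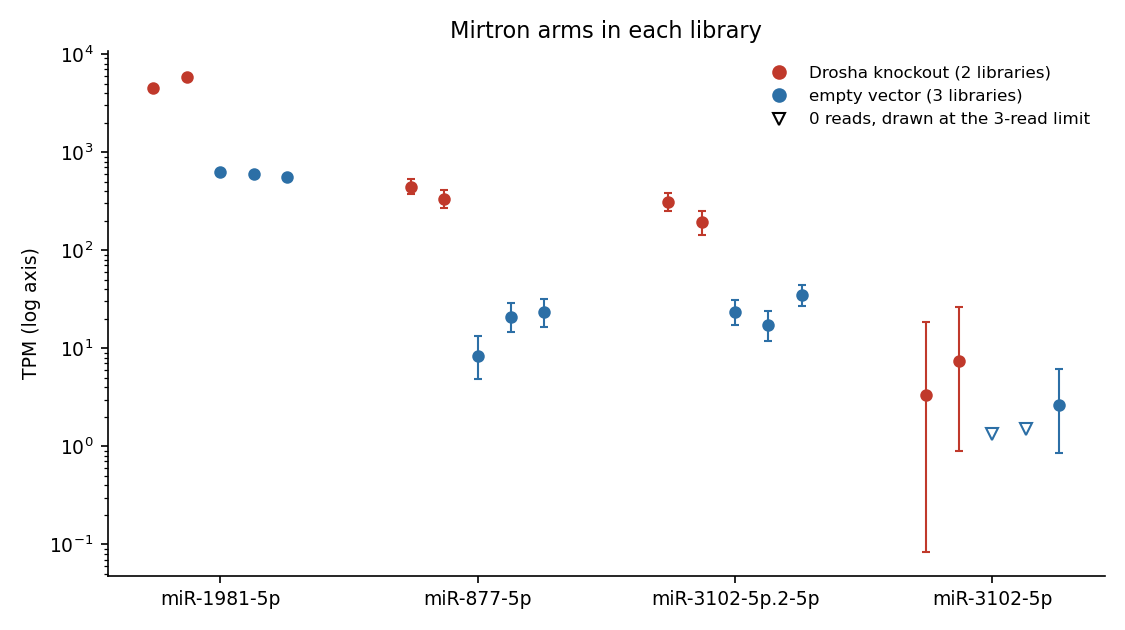
TPM on a log axis of 4 mirtron arms in each library, knockout libraries 1 and 2 in red and empty-vector libraries 1 to 3 in blue, with exact Poisson 95% intervals of the read count; open triangles mark 0 reads at the limit of 3 reads. For miR-1981-5p, miR-877-5p and miR-3102-5p.2-5p both knockout libraries lie above all empty-vector libraries, while the intervals of miR-3102-5p overlap.

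The read counts showed a different contrast from the TPM. Whole reads were recovered from the TPM through the mature lengths, and totalled 304722 and 277142 in Drosha KO libraries, against 2262367, 2028961 and 1918589 with the empty vector. Against this 7.11-fold lower total, the 6 mirtron arms had 1687 and 1885 reads in Drosha KO libraries, against 1584, 1373 and 1257 reads with the empty vector. Mean reads in Drosha KO were 1.22 times those with the empty vector for miR-1981-5p, 1.44 times for miR-3102-5p.2-5p and 3.24 times for miR-877-5p. The totals cover listed miRNAs only, and the labels do not give how many reads were sequenced per library. They sum all listed pairs of a mature miRNA and a precursor, so a miRNA listed with several precursors is counted at each. With 1 pair per mature miRNA, totals were 214264 and 200659 in Drosha KO libraries, against 1613590, 1466825 and 1347800 with the empty vector.

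Drawing every library down to 277142 reads over all listed pairs kept the groups apart. miR-1981-5p then had 1344 and 1750 reads in Drosha KO libraries, against 197, 156 and 167 with the empty vector. miR-877-5p had 114 and 83 reads in Drosha KO libraries, against 1, 7 and 4. miR-3102-5p.2-5p had 78 and 50 reads in Drosha KO libraries, against 7, 6 and 11 with the empty vector.

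**Figure D3:**
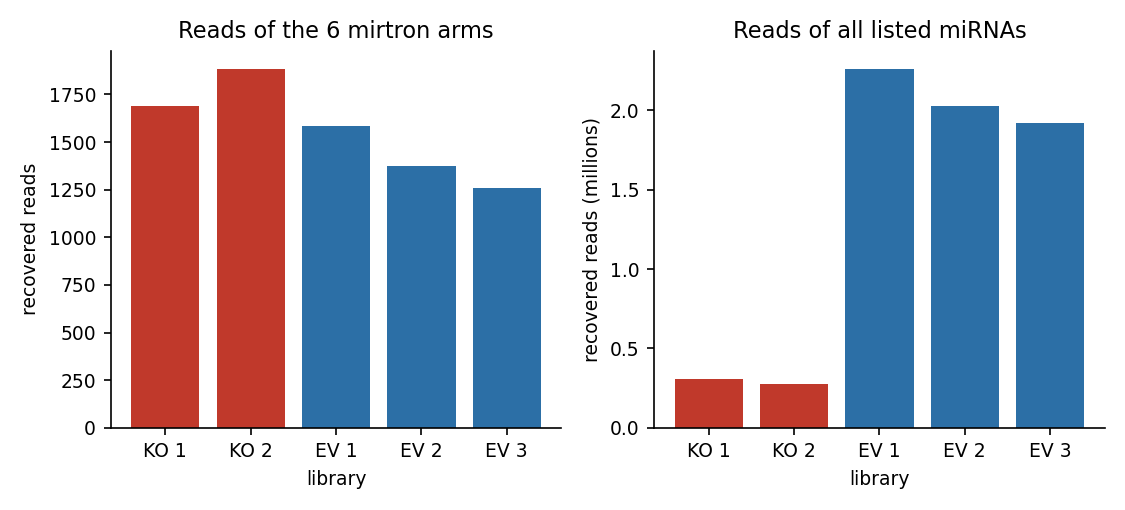
Recovered reads of the 6 mirtron arms (left) and of all listed miRNAs (right) in knockout (KO, red) and empty-vector (EV, blue) libraries. The right panel sums all listed pairs of miRNA and precursor, and both axes start at 0. Mirtron reads lie between 1257 and 1885 in all 5 libraries, while the totals of all listed miRNAs are lower in both knockout libraries.

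As a share of all TPM, the 6 arms took 0.524% and 0.642% in Drosha KO libraries, against 0.0655%, 0.0634% and 0.0616% with the empty vector. The means were 0.583% ± 0.0829 (SD, n = 2) in Drosha KO, against 0.0635% ± 0.00193 (SD, n = 3) with the empty vector, a 9.18-fold difference given as a description. miR-1981-5p made up 85.4% and 91.7% of the mirtron TPM in Drosha KO libraries, against 95.1%, 94.0% and 90.2% with the empty vector. The share of miR-877-5p was 8.49% and 5.22% in Drosha KO libraries, against 1.28%, 3.29% and 3.77%.

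The order of the arms by TPM was not the same in the groups. How well TPM compares the levels of different miRNAs was not tested. In both knockout libraries miR-1981-5p stood first, followed by miR-877-5p and then miR-3102-5p.2-5p. In the empty-vector group miR-1981-5p again stood first, but miR-877-5p and miR-3102-5p.2-5p overlapped, and miR-877-5p was the higher only in library 2. The TPM ratio of miR-877-5p to miR-3102-5p.2-5p was 1.42 and 1.74 in Drosha KO libraries, against 0.357, 1.21 and 0.667 with the empty vector.

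Ratios within a library depend little on how libraries are scaled (only through the 1 TPM added), so they bear on whether the arms changed unequally. The log2 ratio of miR-877-5p to miR-1981-5p was -3.73 ± 0.57 (SD, n = 2) in Drosha KO, against -5.12 ± 0.82 (SD, n = 3) with the empty vector, a difference of 1.39. For miR-877-5p to miR-3102-5p.2-5p it was 0.65 ± 0.21 in Drosha KO and -0.56 ± 0.82 with the empty vector, a difference of 1.22. Without empty-vector library 1 these differences were 0.92 and 0.81, and with 10 TPM added in place of 1 the first was 0.80. Neither ratio overlapped between groups, and each had a two-sided exact permutation p of 0.2 (0.3 adjusted over the 3 pairs compared), the smallest that the 10 splits of 2 against 3 libraries allow. The log2 ratio of miR-3102-5p.2-5p to miR-1981-5p was -4.38 ± 0.77 in Drosha KO and -4.55 ± 0.55 with the empty vector, a difference of 0.17 with overlapping libraries (exact permutation p = 0.8, adjusted p = 0.8). This exact test cannot reach 0.05 with 2 against 3 libraries, so it does not show whether the arms changed unequally.

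**Figure D4:**
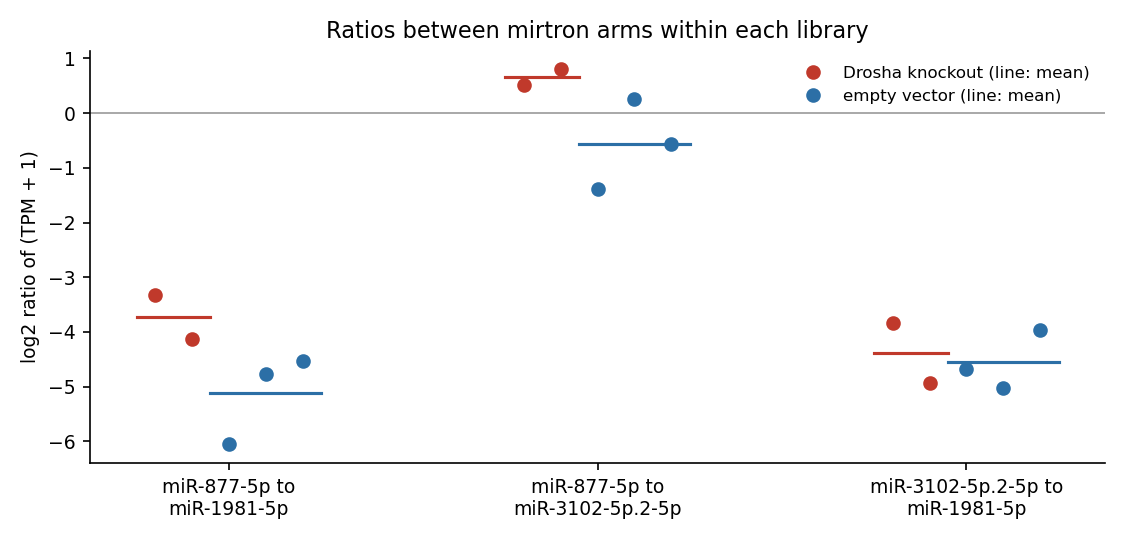
Log2 ratio of TPM + 1 between pairs of mirtron arms within each library (points) with group means (lines), knockout in red and empty vector in blue. Both ratios with miR-877-5p on top are higher in Drosha KO libraries (means -3.73 against -5.12, and 0.65 against -0.56), and the ratio of miR-3102-5p.2-5p to miR-1981-5p overlaps.

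miR-484 offered another scale for the mirtrons. It comes from a short capped precursor that bypasses Drosha by another route, and it rose too, to 21326 ± 446 TPM (SD, n = 2) in Drosha KO, against 4094 ± 877.01 TPM (SD, n = 3) with the empty vector. With libraries rescaled to equal miR-484, miR-877-5p remained higher in Drosha KO, with a log2 change of 2.16 (limma adjusted p = 0.00220). The calls of miR-1981-5p (0.72, limma adjusted p = 0.0610) and miR-3102-5p.2-5p (0.93, limma adjusted p = 0.0521) were lost on this scale. The median log2 change of all tested miRNAs was -0.08 as deposited and -2.43 on the miR-484 scale. Recovered reads of miR-484 were 0.739 times as many in Drosha KO as with the empty vector.

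Other miRNAs listed as bypassing Drosha were read from the same fit. The list covers capped short hairpins and hairpins assigned to snoRNA, scaRNA or tRNA, and was chosen with earlier results of these data known. The origin of its members was not checked here. Of 10 listed, all 6 tested were called higher, against 27.8% of all tested miRNAs, a count given as a description. Their median log2 change was 2.04, although the 3 named here other than miR-484 were below 0 on the miR-484 scale (-0.46 to -0.21). The 6 included miR-484 (2.40), miR-1843b-5p (2.16), miR-3068-5p (2.17) and, lowest of those named, miR-664-3p (1.92). The list named later-annotated mirtron-type was taken by miRNA number alone, without a check of intron ends. Of its 238 miRNAs, 88 had reads and 12 were tested. Of those tested, 10 were higher, 0 lower and 2 did not pass, with a median of 2.99. When placed on annotated introns, 9 of the tested ones matched an intron at the 3′ end only and 1 at both ends, while 1 lay inside an intron. Of these 12, 10 had an empty-vector mean under 5 TPM and were tested only through the knockout, so their count supports no direction. The called ones of largest change were miR-6959-5p (3.56), miR-7091-5p (3.54, a fitted value with 0 reads with the empty vector), miR-6978-3p (3.50) and miR-7013-5p (3.43). With a replicate block, miR-7091-5p (limma adjusted p = 0.0797) and miR-7013-5p (0.0757) were no longer called.

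Introns also host miRNAs that Drosha cuts out, and a list of these was chosen with earlier results of these data known. Over all tested miRNAs, 27.8% were called higher and 27.3% lower. Of 16 tested members of that list, 0 were called higher, 8 were lower and 8 did not pass, with a median log2 change of -0.71, or -0.46 with miR-211-5p, which had 0 reads in Drosha KO, at its bound. Of these 16, 2 (miR-211-5p, among the 8 lower, and miR-25-5p, which did not pass) had a knockout mean under 5 TPM. They were tested only through the empty vector and support no direction. Another, miR-186-5p, was tested only through the knockout and did not pass. Called falls included those of miR-204-5p (-4.01), miR-15b-5p (-1.80) and miR-26b-5p (-1.30). miR-211-5p was called lower as well, but against the limit of 3 reads per library it was only at least 1.20-fold lower (-0.26 on the log2 scale), and its fitted change of -3.65 depends on the 1 TPM added. The called changes in these lists passed limma with Benjamini-Hochberg adjustment over all tested miRNAs, and the difference between lists was not tested.

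**Figure D5:**
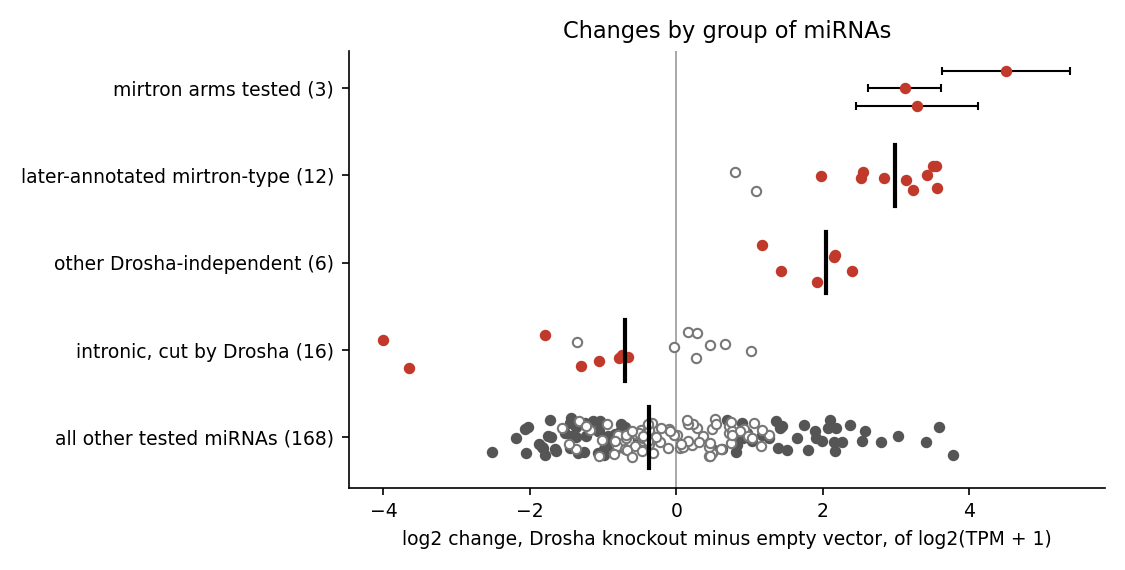
Change of log2(TPM + 1), knockout minus empty vector, of single miRNAs (points) by group, with 95% intervals for miR-877-5p, miR-1981-5p and miR-3102-5p.2-5p from top to bottom in the first row and black bars at the medians of the other rows; filled points passed an adjusted p of 0.05. The 3 mirtron arms lie at 4.50, 3.12 and 3.29, while 10 of the 12 later-annotated mirtron-type miRNAs were tested only through the knockout. Of the 16 intronic miRNAs cut by Drosha, 2 were tested only through the empty vector and 1 only through the knockout.

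The miRNAs with the profile most like each mirtron arm were found by the root mean square difference of log2(TPM + 1) over the 5 libraries, centred on the empty-vector mean. For miR-1981-5p these were miR-714 (difference 0.078), miR-7009-5p (0.19) and miR-3076-3p (0.31). miR-714 stood at 20.9 and 26.9 TPM in Drosha KO libraries, against 2.35, 2.09 and 1.66 TPM with the empty vector, at levels of few reads. For miR-3102-5p.2-5p they were miR-2137 (0.39), miR-6978-3p (0.42) and miR-1981-5p (0.50). miR-2137 stood at 650 and 592 TPM in Drosha KO libraries, against 50.7, 29.8 and 56.4 TPM with the empty vector. miR-877-5p had no close match: miR-6978-3p (0.75), miR-2137 (0.78) and miR-6990-5p (0.83) were nearest. With the empty vector, miR-714, miR-7009-5p and miR-6978-3p averaged only 2.03, 1.64 and 1.57 TPM. They were among the tested miRNAs because of their knockout values, so a rise in Drosha KO was built into their selection. Their likeness to the mirtron arms therefore supports no shared direction. The other neighbours named averaged above 5 TPM in both groups. Being picked for profiles close to an arm that rose, they support no shared direction either. The likeness is a description over libraries that share their depth.

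Markers of cell type were read from the same libraries. The 10 listed mesenchymal miRNAs all had reads and summed to between 41579 and 51623 TPM in Drosha KO, against 36742 to 40605 TPM with the empty vector, without overlap. Their members did not move together. Over all tested miRNAs, 27.8% were called higher and 27.3% lower. Of 9 mesenchymal miRNAs tested, 3 were called higher (limma), a share close to that over all tested miRNAs. These were miR-145a-5p (log2 change 1.41), miR-199a-5p (0.70) and miR-143-3p (0.51), while 0 were called lower and 6 did not pass. Among those 6, miR-100-5p averaged 5592 TPM in Drosha KO, against 7082 TPM with the empty vector, and miR-214-5p averaged 725 TPM in Drosha KO, against 947 TPM. The haematopoietic sums, with 3 of 6 miRNAs having reads, overlapped at 77.0 to 147 TPM in Drosha KO and 97.2 to 138 TPM with the empty vector, but their members differed. The erythroid miRNA miR-451a was called higher, at 19.9 and 58.7 TPM in Drosha KO, against 8.06, 4.99 and 7.91 TPM with the empty vector (log2 change 2.17, limma adjusted p = 0.00371). miR-155-5p averaged 65.4 TPM in Drosha KO, against 108 TPM with the empty vector, and did not pass (limma adjusted p = 0.104).

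The neural list, 2 of 4 with reads and nearly all miR-129-5p, summed to between 1740 and 1951 TPM in Drosha KO, against 952 to 1104 TPM with the empty vector. miR-129-5p was called higher (log2 change 0.89, limma adjusted p = 0.00365). miR-9-5p went the other way, at 9.52 and 3.51 TPM in Drosha KO libraries, against 14.6, 15.3 and 15.6 TPM with the empty vector. This fall did not pass (log2 change -1.23, limma adjusted p = 0.0868). The liver miRNA miR-122-5p was at 36.5 and 25.7 TPM in Drosha KO, against 5.28 to 12.0 TPM with the empty vector, and was called higher too (log2 change 1.65, limma adjusted p = 0.0157). The epithelial sums, with 1 of 6 having reads, were 0 to 7.33 TPM in Drosha KO and 3.49 to 4.03 TPM with the empty vector. All 5 muscle arms, miR-126a-5p of endothelium, miR-142a-5p, miR-144-5p and miR-223-5p of blood cells and miR-124-5p of neurons were at 0 in every library. The called markers ran the same way as the mirtron rise, and their part in it was not tested.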

How the data were processed

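The authors deposited TPM values in 1191 rows, each a mature miRNA with a precursor. Bowtie2 2.5.1 and GRCm38 are named, without a role, per the submitters' processing notes, and the primers carried unique molecular identifiers per the labels' protocols. The counter, trimming, filters and use of strand and identifiers are not given by these sources. The pair with the highest mean was kept for each mature miRNA. Reads were recovered by searching lengths of 15 to 30 bases at which every value was whole within 1e-06. This held for 100% of the 536 pairs with reads, and 6 had several possible lengths. 1 read was worth 3.32 and 3.67 TPM in Drosha KO libraries, against 0.448, 0.499 and 0.528 TPM with the empty vector at 22 bases. Groups were compared by limma 3.58.1 (R 4.3.3), fitted with trend to log2(TPM + 1) of miRNAs whose mean reached 5 TPM, two-sided with Benjamini-Hochberg adjustment. Each miRNA's variance was drawn toward that of all tested miRNAs, with 24.2 prior against 3 residual degrees of freedom. The fit was tested on 20 draws of simulated data with a fixed dispersion of 0.03, which was not matched to the observed replicates. There 7.22% of calls were false, and 58.3% of log2 changes of size 1 and 92.5% of size 2 were recovered. Replicates differed beyond sampling noise in every pair. Hairpins were placed against introns of GENCODE M21. The members, lists and tests were chosen with earlier results of these data known. Named miRNAs were all member arms, miR-484, the 3 nearest profiles of each tested arm and, per list, the 4 called miRNAs (or fewer) that changed most, and other miRNAs named were chosen after their values were seen.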

Additional observations from a re-analysis of the deposited data

How the results depend on the processing

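miR-877-5p stayed higher in Drosha KO and past the threshold under all 18 alternatives (log2 change 2.16 to 4.85). miR-1981-5p (0.72 to 3.31) and miR-3102-5p.2-5p (0.93 to 3.64) did so under 17 of 18, the exception being rescaling to equal miR-484, with 0.72 and 0.93. Without each library in turn, the ranges were 4.07 to 4.76, 2.92 to 3.31 and 2.94 to 3.64, and limma adjusted p values reached at most 0.00580, 0.00241 and 0.00733. Leaving out a Drosha KO library leaves 1, which limma assumes to vary like the empty-vector libraries. On the miR-484 scale 3 miRNAs were higher and 153 lower, and the changes of miR-664-3p (-0.46), miR-3068-5p (-0.21) and miR-1843b-5p (-0.21) were below 0. The trimmed mean of M values gave 42 higher and 80 lower, against 57 and 56 as deposited. Without the mean-variance trend 35 were lower, and limma adjusted p was 0.00185 for miR-877-5p, 0.00135 for miR-1981-5p and 0.00231 for miR-3102-5p.2-5p. Leaving out 1 library gave 39 to 55 higher and 34 to 52 lower, with 34 lower without knockout library 2 and 34 without empty-vector library 1. The replicate numbers are not stated to pair the libraries. Correlations of deviations were -0.12 for number 1 and -0.14 for number 2. With the number as a replicate block, 39 were higher and 35 lower, and log2 changes were 4.76 for miR-877-5p, 3.07 for miR-1981-5p and 3.54 for miR-3102-5p.2-5p, all called (limma). Over 1 pair per mature miRNA, the mirtron share was 0.815% in Drosha KO and 0.0890% with the empty vector. Over all listed pairs, leaving out 1 library gave 0.524% to 0.642% in Drosha KO and 0.0625% to 0.0644% with the empty vector. The difference between groups (Drosha KO minus empty vector) in the log2 ratio of miR-3102-5p.2-5p to miR-1981-5p, 0.17 as reported, was -0.21 with a pseudocount of 10 and -0.38 to 0.72 without 1 library. For miR-877-5p to miR-1981-5p this difference was 0.80 with a pseudocount of 10 and 0.92 to 1.79 without 1 library, and for miR-877-5p to miR-3102-5p.2-5p it was 0.81 to 1.63 without 1 library. The cause of these shifts was not tested. Depth limits miR-702-5p, miR-1224-5p and the outer arm of mir-3102 to a description.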

Other observations

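Intron ends also mark hairpins other than these mirtrons, a class formed after the values were seen and given without a test. Of 812 listed hairpins placed on GENCODE M21, 18 (2.22%) had both ends within 3 bases of an intron's ends, 4 of them from the mirtrons described. Of the other 14 miRNAs of these hairpins, 2 had reads. miR-7091-5p, from an intron of Dnase1l1, had 1 and 9 reads in Drosha KO libraries, against 0 with the empty vector. miR-7068-5p, from an intron of Cherp, had 2 and 2 reads in Drosha KO libraries, against 0, 1 and 0 with the empty vector.

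A larger class of 183 hairpins (22.5%), which includes Mir702, matched an intron at the 3′ end only. Mirtrons with a tail before the hairpin have such a match, but the class was set by position alone. Mir702 has no such tail, since its annotated hairpin begins before the intron does. Apart from miR-702-5p, these held 216 miRNAs, of which 84 had reads. Their summed TPM, free of any filter, was 559 and 645 in Drosha KO libraries, against 88.9, 76.9 and 93.8 with the empty vector, a 6.96-fold difference. Hairpins that lie inside an intron away from its ends summed to 166950 and 201360 TPM in Drosha KO libraries, against 216853, 211227 and 202211 TPM. In the 3′-end class, 11 of 13 tested miRNAs were higher, 0 lower and 2 did not pass (limma, Benjamini-Hochberg). Over all tested miRNAs, 27.8% were called higher and 27.3% lower. Of these 13, 9 had an empty-vector mean under 5 TPM and were tested only through the knockout, so the count supports no direction. Among the called ones were miR-3076-3p and miR-3076-5p from an intron of Tkt, a transketolase gene, with log2 changes of 3.42 and 2.15. miR-3064-5p from an intron of Ddx5, an RNA helicase gene, had a log2 change of 2.07, with 18 and 15 reads in Drosha KO libraries, against 30, 14 and 42 with the empty vector.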
